A study of Mus musculus with 2 samples.

Results

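A set of 8 genes that encode non-classical major histocompatibility complex (MHC) class I molecules or their relatives CD1d and MR1 was examined in thymic epithelial cells of fetal mice. They were taken by symbol from a list of 10, of which 8 were present among the 25791 gene symbols measured: H2-T22, H2-T23, H2-T24, H2-T10, H2-M2, H2-M3, Cd1d1 and Mr1. H2-Q4 and H2-Q7 were not matched by symbol. H2-Q7 was not analysed here, and H2-gs10, which RefSeq gives as a synonym of H2-Q4, is described apart from the 8. RNA was sequenced from cells of the fetal thymus at 15 days post coitum, sorted as EpCAM+, CD45- and PDGFRa-. The B6J library was made from C57BL/6 mice. The humanCD3eTg library came from mice of C57BL/6J x CBA/J background. The name of the latter refers to a transgene of human CD3e, and the labels give neither its promoter nor the number of embryos behind a library. The study set epithelium that had developed with thymocytes against epithelium that had developed without them. The treatment labels assign the presence of thymocytes to humanCD3eTg and their absence to B6J, which goes against the thymocyte transcripts (Cd3e, a chain of the CD3 complex of T cells, at 10.58 FPKM in B6J and 1.08 in humanCD3eTg), so the libraries are called by their titles. With 1 library per group there was no replicate spread and no test, and strain and transgene cannot be told apart.

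Classical class I molecules show peptides from inside the cell to CD8 T cells, and almost all nucleated cells make them. The non-classical molecules have the same build, a heavy chain that usually pairs with beta-2 microglobulin, but vary little between individuals and serve narrower tasks. CD1d shows lipids to natural killer T cells and MR1 shows metabolites of riboflavin synthesis to mucosal-associated invariant T cells, lineages that are both selected in the thymus. Of the 8 genes, 6 lie in the MHC on chromosome 17, while Cd1d1 lies on chromosome 3 and Mr1 on chromosome 1.

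The 6 MHC genes stood lower in humanCD3eTg than in B6J, whereas Cd1d1 and, less clearly, Mr1 stood near the same level in both libraries. In bulk RNA, fewer cells of a type and less RNA per cell cannot be told apart. The humanCD3eTg mice were partly of CBA/J background. Whether strain differences in gene sequence changed how reads matched build mm9 was not tested. Levels are in FPKM, a fragment count that the authors scaled to transcript length and library size. Differences are log2 ratios of humanCD3eTg over B6J on FPKM + 1, which understates the difference of low genes. Summed over the 6 MHC genes the level was 74.9 FPKM in B6J and 31.9 in humanCD3eTg, or 42.7% of the B6J level. H2-T23 alone made 45.2 and 20.6 FPKM of these sums. For Cd1d1 and Mr1 together the summed level was 11.6 and 10.7 FPKM, or 91.9%. Averaged over the libraries each of the 8 genes reached 1 FPKM, and 6 reached 1 FPKM in both libraries. H2-M2 and H2-M3 did so only in B6J. They pass a filter on a mean of 1 FPKM through the library where they are high, so counts that include them partly follow from it. On FPKM + 1, 3 of the 8 genes were at least 2-fold lower in humanCD3eTg, where 4.47% of all 13493 genes that average at least 1 FPKM were. None was at least 2-fold higher, against 2.1% of those genes. Rescaled to the median of the thymic epithelial genes, 2 of the 8 genes were at least 2-fold lower and none at least 2-fold higher. The shares of the 13493 genes were then 3.34% and 3.48%. The median log2 ratio was -0.78 over the 8 genes and -0.05 over the 13493. To any degree, 7474 of the 13493 genes were lower in humanCD3eTg and 6019 higher. Counts of genes lower to any degree are to be read against these numbers.

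**Figure D1:**
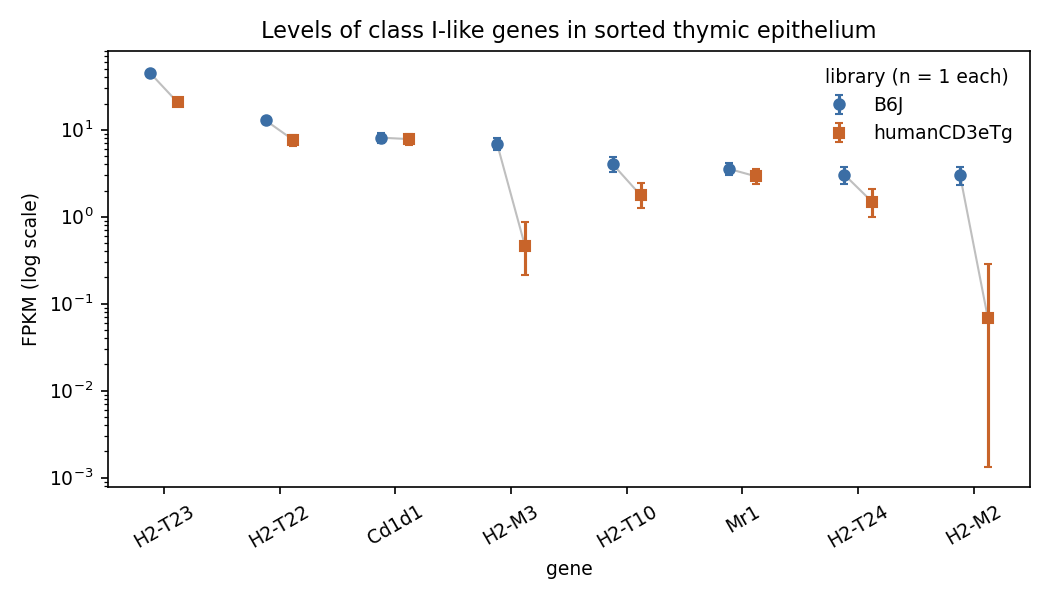
Level of each gene in FPKM (log axis) in the library titled B6J (circles) and the library titled humanCD3eTg (squares), 1 library each. Bars are approximate 95% Poisson intervals of the estimated fragments and cover counting error only. H2-M3 and H2-M2 show the widest gaps, where H2-M3 had 6.87 FPKM in B6J and 0.465 in humanCD3eTg and H2-M2 had 2.98 and 0.0684, while the intervals of Cd1d1 and of Mr1 overlap.

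Promoters of 5 of the 8 genes were matched by symbol in the RefSeq table of assembly GRCm38.p6. The 4 printed here are those of the gene with the highest level (H2-T23), of the genes with the largest differences (H2-M3 and H2-M2) and of 1 gene near the same level in both libraries (Mr1). Each run holds 250 bases before and 50 after the annotated start, 5′ to 3′ on the gene's strand. The build differs from mm9, the build named for the deposited values. Capitals mark matches on either strand to the interferon-stimulated response element (ISRE) core GAAANNGAA, the CRE-like motif TGACG, the CCAAT box or the NF-kB consensus. The windows are chr17:36032652-36032951 (minus strand) for H2-T23, chr17:37269984-37270283 (plus strand) for H2-M3, chr17:37483505-37483804 (minus strand) for H2-M2 and chr1:155146765-155147064 (minus strand) for Mr1.
H2-T23: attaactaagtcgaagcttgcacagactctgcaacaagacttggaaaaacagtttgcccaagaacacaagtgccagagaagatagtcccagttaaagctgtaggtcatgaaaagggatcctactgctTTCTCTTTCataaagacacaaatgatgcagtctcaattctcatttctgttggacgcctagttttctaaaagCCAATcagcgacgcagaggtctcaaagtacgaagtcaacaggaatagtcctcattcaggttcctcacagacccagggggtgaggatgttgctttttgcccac
H2-M3: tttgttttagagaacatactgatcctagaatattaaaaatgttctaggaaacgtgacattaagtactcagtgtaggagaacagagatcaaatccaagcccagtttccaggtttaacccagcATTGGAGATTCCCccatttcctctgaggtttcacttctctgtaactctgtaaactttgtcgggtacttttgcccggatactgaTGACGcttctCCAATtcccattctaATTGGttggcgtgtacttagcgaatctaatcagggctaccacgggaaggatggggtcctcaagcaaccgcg
H2-M2: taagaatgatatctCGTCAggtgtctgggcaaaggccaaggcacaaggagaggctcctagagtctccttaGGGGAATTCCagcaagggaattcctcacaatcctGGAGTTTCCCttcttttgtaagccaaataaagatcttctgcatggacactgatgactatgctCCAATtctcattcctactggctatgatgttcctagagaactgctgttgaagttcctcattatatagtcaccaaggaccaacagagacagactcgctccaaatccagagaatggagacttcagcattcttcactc
Mr1: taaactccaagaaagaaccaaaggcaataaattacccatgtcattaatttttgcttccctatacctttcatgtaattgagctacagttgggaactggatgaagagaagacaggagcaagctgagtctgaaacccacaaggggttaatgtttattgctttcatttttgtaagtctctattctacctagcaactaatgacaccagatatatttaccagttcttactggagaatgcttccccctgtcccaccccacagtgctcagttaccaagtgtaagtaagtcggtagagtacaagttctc

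The ISRE core was matched in H2-T23, at positions -123 to -115 from the start, and in H2-T22, whose window is not shown. It was held by 8.56% of all 32851 promoter windows. The NF-kB consensus, held by 8.46% of windows, was matched in H2-M3, in H2-M2 at 2 places and in H2-T22. In H2-M3 it overlaps a CCAAT match on the minus strand. A CCAAT match was found in the windows of all 4 MHC genes that were matched (37.4% of windows), and TGACG in H2-T22, H2-M2 and H2-M3 (20.8% of windows). None of the 4 motifs was matched in the Mr1 window. These matches describe the letters of the windows and are not evidence of binding.

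H2-T23 encodes the heavy chain of Qa-1, which shows a leader peptide of other class I chains to the CD94-NKG2A receptor of lymphocytes. It had the highest level of the 8 genes in each library. It stood at 45.2 FPKM in B6J and 20.6 FPKM in humanCD3eTg, a log2 ratio of -1.10. About 1138 and 412 fragments lay behind these levels, so that the humanCD3eTg level was 45.5% of the B6J level (95% counting interval 40.6 to 51.1%). A lower log2 ratio was found for 517 of the 13493 genes. With a pseudocount of 5 the log2 ratio was -0.97, and rescaled to the thymic epithelial genes it was -0.89, both short of 2-fold. Of the stretches of 50 bases in its GENCODE transcripts 28.8% also occur in transcripts of other genes, so part of its level may be shared with them.

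H2-T22 and H2-T10 encode closely related molecules known as ligands of some gamma-delta T cell receptors, and RefSeq lists H2-T10 as a transcribed pseudogene in this assembly. H2-T22 stood at 12.8 FPKM in B6J and 7.60 FPKM in humanCD3eTg (log2 ratio -0.68). Its humanCD3eTg level was 59.4% of the B6J level, with a counting interval of 49.5 to 71.2%. H2-T10 stood at 4.0 and 1.76 FPKM (-0.85), or 44.1% (29.5 to 65.5%). Reads of these 2 genes may be split between them. Of the stretches of 50 bases in the GENCODE transcripts of H2-T22, 37.5% also occur in H2-T10, and of those in H2-T10, 40.2% occur in H2-T22. The difference in their percentages is therefore uncertain, and their counting intervals overlap.

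H2-T24, a further gene of the T region, stood at 3.04 FPKM in B6J and 1.48 FPKM in humanCD3eTg. About 80 and 31 fragments lay behind these levels. The humanCD3eTg level was 48.6% of the B6J level (31.1 to 74.7%), and the log2 ratio on FPKM + 1 was -0.70. With a pseudocount of 0.1 it was -0.99. In FPKM itself, with no pseudocount, 5 of the 8 genes were at least 2-fold lower: H2-T23, H2-T24, H2-T10, H2-M2 and H2-M3. On that scale 7.03% of the 13493 genes were.

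H2-M3, which shows peptides that begin with N-formylmethionine, as those of bacteria and mitochondria do, had the lowest log2 ratio of the 8 genes. It stood at 6.87 FPKM in B6J and 0.465 FPKM in humanCD3eTg (-2.43), on about 168 and 9 fragments. The humanCD3eTg level was 6.77% of the B6J level, with a counting interval of 3.03 to 13.1%. Only 112 of the 13493 genes had a lower log2 ratio. H2-M2, also of the M region, stood at 2.98 FPKM and 0.0684 FPKM (-1.90). About 72 fragments lay behind the first level and about 1 behind the second. The humanCD3eTg level was 2.29% of the B6J level, with a counting interval of 0.0437 to 10.06%. The log2 ratio of H2-M2 depends on the pseudocount, at -4.19 with 0.1 and -0.66 with 5, and that of H2-M3 was -3.63 and -1.12. Both genes have little sequence in common with other transcripts, with 0.576% of the 50-base stretches of H2-M3 and 1.61% of those of H2-M2 found in another gene.

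Cd1d1, the gene of mouse CD1d, stood at 8.09 FPKM in B6J and 7.80 FPKM in humanCD3eTg, on about 238 and 182 fragments. The humanCD3eTg level was 96.4% of the B6J level (78.9 to 117.2%). Its log2 ratio of -0.05 is the same as the median of all genes at this rounding, so its sign follows the scaling: it was 0.03 after quantile normalization, and 0.00 with median centring and 0.16 after rescaling to the thymic epithelial genes, which add the same shift to every gene. Of its 50-base stretches 25.1% also occur in Cd1d2, the second mouse CD1d gene, which stood at 2.35 and 1.76 FPKM (-0.28). Mr1 stood at 3.55 and 2.90 FPKM (-0.22), or 81.6% of the B6J level (63.5 to 105.2%). None of its 50-base stretches occurs in another gene. For both genes the counting interval includes an equal level. That of Mr1 also overlaps the intervals of H2-T22, H2-T24 and H2-T10.

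**Figure D2:**
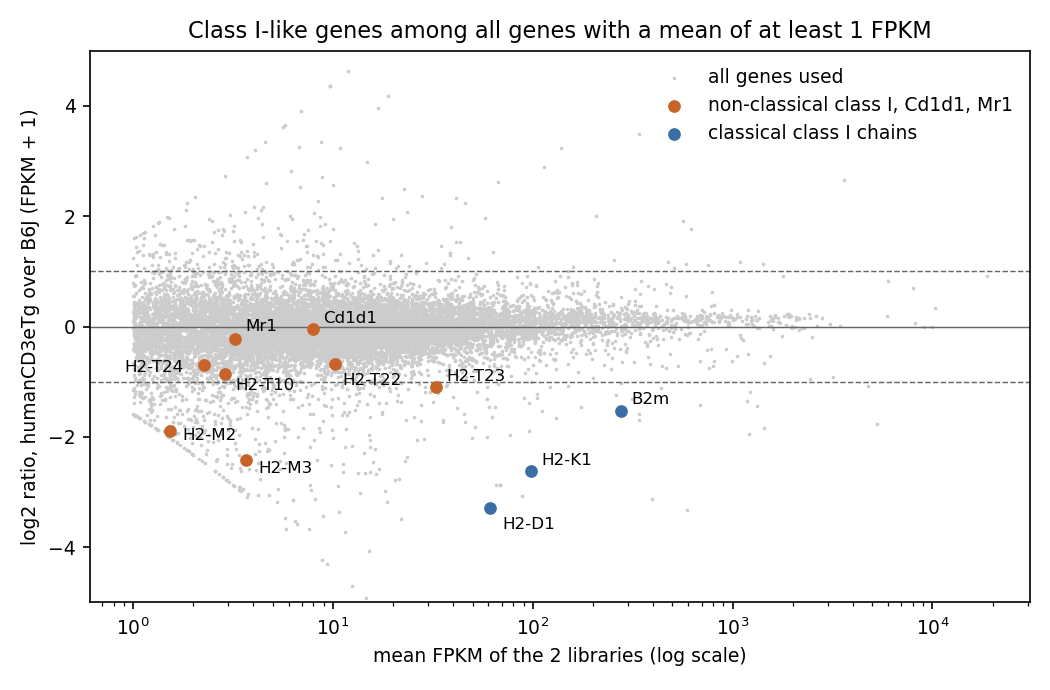
Log2 ratio of humanCD3eTg over B6J on FPKM + 1 against the mean FPKM of the libraries (log axis) for the 13493 genes averaging at least 1 FPKM, 1 library per group. Dashed lines mark 2-fold, and 53 genes with a log2 ratio beyond 5 in size lie outside the axis. H2-T23, H2-M2 and H2-M3 lie below the lower dashed line with the classical chains H2-K1, H2-D1 and B2m, and Cd1d1 lies at -0.05.

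The order of the levels differed between the libraries. In B6J it ran from H2-T23 through H2-T22, Cd1d1, H2-M3, H2-T10, Mr1 and H2-T24 to H2-M2. The counting intervals of neighbours in this order overlapped except between H2-T23 and H2-T22, between H2-T22 and Cd1d1, and between H2-M3 and H2-T10. In humanCD3eTg the order was H2-T23, Cd1d1, H2-T22, Mr1, H2-T10, H2-T24, H2-M3 and H2-M2. There the interval of Cd1d1 (6.70 to 9.003 FPKM) overlapped that of H2-T22 (6.53 to 8.80 FPKM). H2-M3 went from the fourth place to the seventh, and its interval in humanCD3eTg (0.211 to 0.877 FPKM) lay below that of H2-T24 (1.004 to 2.097 FPKM).

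Set against the classical class I chains, 6 of the 8 genes kept a higher percentage of their B6J level in humanCD3eTg. H2-K1, a classical heavy chain, stood at 169.6 FPKM in B6J and 26.8 FPKM in humanCD3eTg, or 15.8% of the B6J level. H2-D1, the other classical heavy chain measured, stood at 111.3 and 10.47 FPKM, or 9.41%. The shared light chain B2m stood at 410.0 and 141.8 FPKM, or 34.6%. The level of H2-T23 was 26.6% of that of H2-K1 in B6J and 76.7% in humanCD3eTg. For Cd1d1 these values were 4.77% and 29.1%, and for Mr1 2.095% and 10.8%. The opposite held for H2-M3, at 4.05% and 1.73% of the H2-K1 level, and for H2-M2, at 1.76% and 0.255%. Of the 50-base stretches in the GENCODE transcripts of H2-K1, 6.87% also occur in other genes, and of those of H2-D1, 13.9%, so a part of their levels may be shared with them.

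Among 36 further class I-like genes listed, 31 were found and 11 averaged at least 1 FPKM. Of these 11, 9 were lower in humanCD3eTg and 3 at least 2-fold, with a median of -0.49. The 3 were Q region genes: H2-Q6 at 14.3 and 3.06 FPKM (-1.91), H2-Q9 at 18.8 and 4.49 FPKM (-1.85) and H2-Q8 at 13.96 and 4.55 FPKM (-1.43). These genes encode or closely resemble Qa-2 and may share reads with one another. H2-Q10 stood at 3.08 and 1.52 FPKM (-0.69). Not all H2 genes of the list were lower to this degree. H2-Q2 stood at 2.64 and 2.48 FPKM (-0.06). H2-Bl, between H2-T22 and H2-T10 on chromosome 17, stood at 1.89 and 1.91 FPKM (0.01). H2-gs10, the RefSeq synonym of H2-Q4, stood at 80.5 and 22.2 FPKM (-1.81). It was left out of the 8 because its symbol was not on the list. Adding it brings the genes at least 2-fold lower to 4 of 9. Fcgrt, the neonatal Fc receptor, which is class I-like but does not present antigen, stood at 11.8 and 13.7 FPKM (0.19). In the list as a whole 13 genes were listed at 0 in both libraries.

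**Figure D3:**
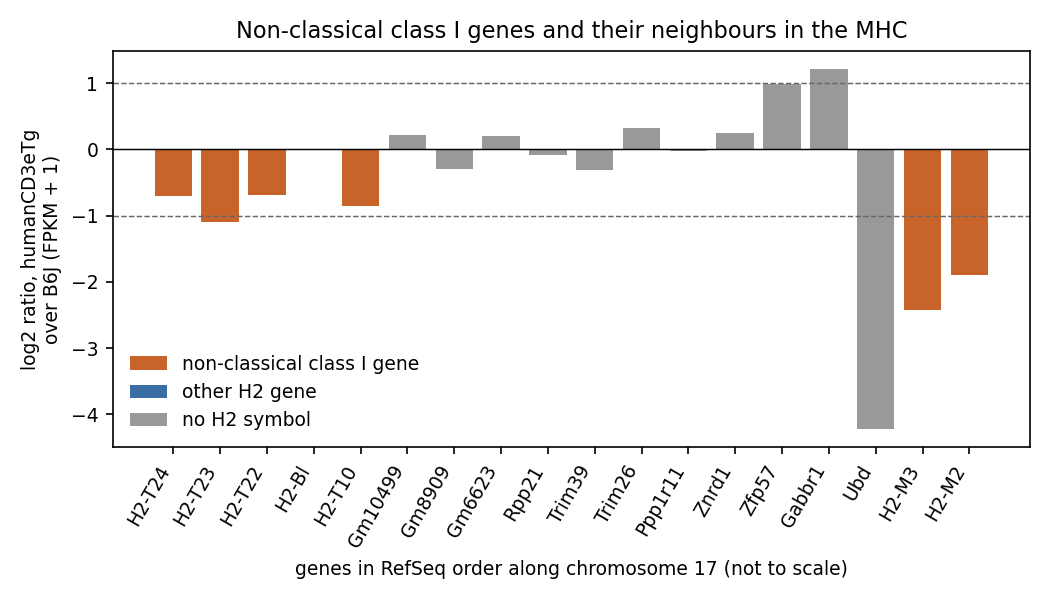
Log2 ratio of humanCD3eTg over B6J on FPKM + 1 for the genes averaging at least 1 FPKM from H2-T24 to H2-M2, in RefSeq order along chromosome 17 and not to scale. The 6 non-classical class I genes lie between -0.68 and -2.43. The bar of Ubd depends on the pseudocount because the gene is listed at 0 in humanCD3eTg, and the bar of H2-Bl is too short to see (0.01).

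Genes without an H2 symbol that lie between H2-T24 and H2-M2 were of mixed direction. Of 36 found, 11 averaged at least 1 FPKM, 6 of them higher in humanCD3eTg and 5 lower, with a median of 0.20. Rpp21, a ribonuclease P subunit gene, stood at 50.1 and 47.3 FPKM (-0.08), and Ppp1r11, a phosphatase inhibitor gene, at 24.5 and 23.9 FPKM (-0.03). Closest to H2-M3 in this order were Gabbr1, a GABA receptor subunit gene, at 7.59 and 19.0 FPKM (1.22), and Ubd, at 17.7 FPKM in B6J and listed at 0 in humanCD3eTg. Ubd, which encodes a ubiquitin-like protein induced by interferon gamma, was the 1 gene of the 11 that was at least 2-fold lower.

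Genes that serve the loading of class I molecules were lower in the same library. All 13 listed genes were used and all 13 were lower in humanCD3eTg, 9 of them at least 2-fold (median -1.43). Tap1, a subunit of the peptide transporter, stood at 39.6 and 6.52 FPKM (-2.43), and its partner Tap2 at 18.1 and 5.32 FPKM (-1.59). Psmb8, an immunoproteasome gene, stood at 17.3 and 0.681 FPKM (-3.44), and Psmb9, another, at 198.0 and 62.2 FPKM (-1.65). Genes for the loading of lipids onto CD1d and for its trafficking were spread around no difference, as Cd1d1 itself was. Of 18 genes, 13 were lower, 2 at least 2-fold, and 5 higher, with a median of -0.11 that became 0.10 after rescaling to the thymic epithelial genes. The 2 were Cd74, the class II invariant chain, at 2242 and 626.6 FPKM (-1.84), and Ctss, a cathepsin, at 3.73 and 0.877 FPKM (-1.33), both of which also serve class II presentation. Psap, the precursor of the saposins that load lipids, stood at 217.5 and 162.1 FPKM (-0.42), and Ctsl, the cathepsin of the thymic cortex, at 1817 and 1261 FPKM (-0.53).

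**Figure D4:**
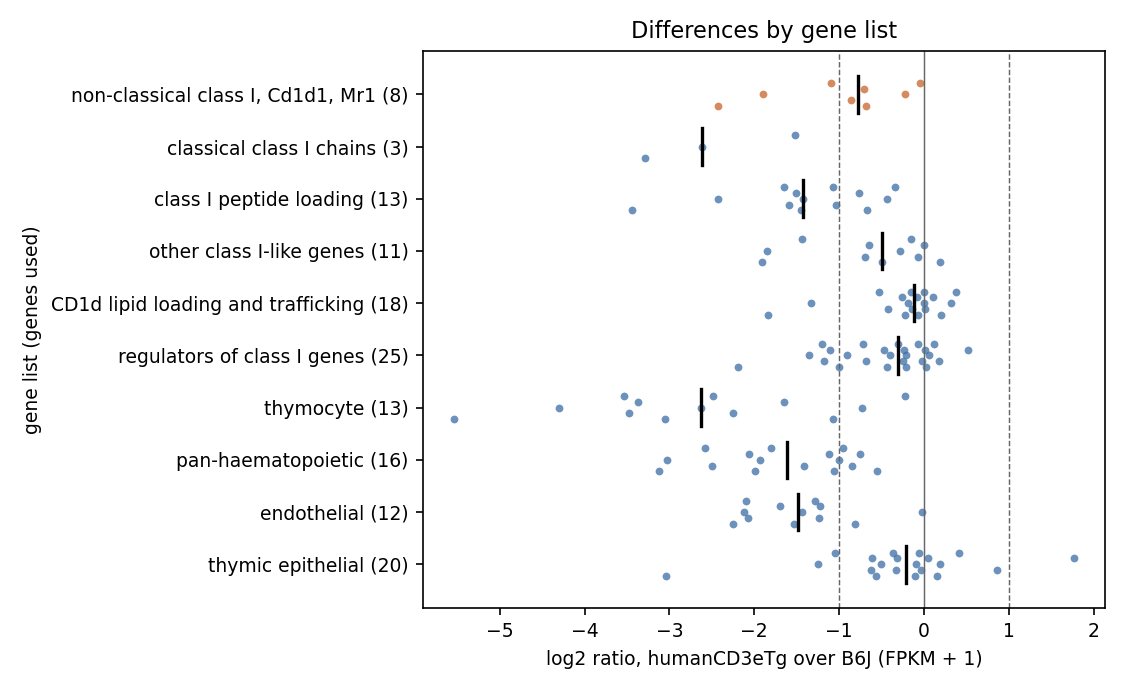
Log2 ratio of humanCD3eTg over B6J on FPKM + 1 for each gene averaging at least 1 FPKM, by list (1 point per gene, bar at the median, number of genes in brackets). Dashed lines mark 2-fold. The median of the 8 genes (-0.78) lies between that of the class I peptide loading list (-1.43) and that of the CD1d lipid loading list (-0.11).

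Known regulators of class I genes were lower by smaller amounts. Of 27 genes, 25 averaged at least 1 FPKM, 19 of them lower in humanCD3eTg, 6 at least 2-fold, and none at least 2-fold higher (median -0.31). After rescaling to the thymic epithelial genes this median was -0.10. Ciita, the class II transactivator, stood at 13.3 and 2.13 FPKM (-2.19). Ifngr1, a chain of the interferon gamma receptor, stood at 19.9 and 7.22 FPKM (-1.35). Stat2, which carries interferon signals, stood at 6.02 and 2.05 FPKM (-1.20). Irf1, an interferon-induced activator of class I genes, stood at 181.3 and 137.1 FPKM (-0.40). Nlrc5, the class I transactivator, stood at 0.548 and 0.206 FPKM, below the 1 FPKM asked on average of the genes counted.

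Markers of other cell types moved in both directions: those of thymocytes, haematopoietic cells as a whole and vessels were lower in humanCD3eTg, and those of neural crest and pigment cells were higher. Of 21 thymocyte genes, 13 averaged at least 1 FPKM, all 13 lower and 11 at least 2-fold. The summed level of the 21 was 182.9 FPKM in B6J and 14.4 FPKM in humanCD3eTg, with Cd3d and Cd3g listed at 0 in humanCD3eTg. The 19 pan-haematopoietic genes found summed to 237.2 and 84.8 FPKM (16 used, all 16 lower, 12 at least 2-fold), with Ptprc, which encodes CD45, at 4.18 and 0.358 FPKM. Arhgdib alone made 117.4 and 64.9 FPKM of these sums. The 17 endothelial genes summed to 74.0 and 21.4 FPKM (12 used, all 12 lower, 10 at least 2-fold), with Pecam1 at 8.01 and 1.10 FPKM. The B, NK and innate lymphoid list summed to 136.6 and 65.8 FPKM (8 used, 7 lower and 4 of them at least 2-fold, 1 higher). Id2, the 1 higher gene, alone made 55.8 and 58.7 FPKM of these sums. Gzma at 56.6 FPKM and Nkg7 at 5.17 FPKM in B6J were listed at 0 in humanCD3eTg. The macrophage and dendritic genes were of mixed direction. Of 8 used, 5 were higher, 1 at least 2-fold, and 3 lower, 2 at least 2-fold (median 0.35), and the 20 found summed to 37.9 and 33.8 FPKM. C1qb, a complement gene of macrophages, stood at 0.524 and 2.13 FPKM, and Mpeg1, another macrophage gene, at 3.26 and 0.519 FPKM. The mesenchymal list summed to 262.0 and 272.0 FPKM (12 used, 9 lower and 2 of them at least 2-fold, 3 higher). The 12 neural crest and pigment genes summed to 20.8 FPKM in B6J and 184.2 FPKM in humanCD3eTg (11 used, all 11 higher, 9 at least 2-fold), with Dct, an enzyme of melanin synthesis, at 0.631 and 55.5 FPKM. Genes were counted on their mean over the libraries. Some, such as Cd3d, Cd3g and Dct, reached 1 FPKM only in the library where they were high, so these counts partly follow from the filter. The same holds for Ubd, Psmb8, Ctss, Slamf6 and Sh2d1a in the counts of their lists. The part of all these cell types in the levels of the class I genes was not tested. The 20 thymic epithelial genes summed to 8532 and 8690 FPKM, with Epcam at 173.5 and 231.4 FPKM and Foxn1 at 91.1 and 43.7 FPKM. Of these genes 14 were lower, 3 at least 2-fold, and 6 higher, 1 at least 2-fold (median -0.21). The largest differences were those of Aire, at 7.53 and 0.0366 FPKM (-3.04), and Krt5, at 280.2 and 955.5 FPKM (1.77). Krt14 stood at 22.9 and 9.05 FPKM (-1.25).

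Genes listed for lymphocytes that recognise non-classical ligands, not all of them receptors of these ligands, were scarce. Of 19 listed, 16 were found and 2 averaged at least 1 FPKM: Slamf6, a signalling receptor needed by natural killer T cells, at 2.83 and 0.0282 FPKM, and its adaptor Sh2d1a at 1.79 and 0.923 FPKM. Klrc1 and Klrd1, which encode NKG2A and CD94, the receptor of Qa-1, were listed at 0 in both libraries.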

How the data were processed

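RNA of sorted thymic epithelial cells, 1 library per group, was extracted with TRIzol for TruSeq libraries, per the labels. Each deposited table of the authors gives 1 FPKM value per gene symbol. The submitters' processing notes name TopHat2 2.0.8, Bowtie2 2.1.0, Cufflinks 2.1.1 and build mm9, with no roles. Not given in the sources used here are the annotation, the use of strand and the handling of reads with several matches.

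Genes and lists were matched by symbol, and the members, lists and tests were chosen with earlier results of these data known. H2-gs10, the chromosome 17 neighbours, H2-Q2, H2-Bl, Id2, Arhgdib, Klrc1 and Klrd1 were chosen after their values were seen. Other named genes follow a rule: the 8 genes, up to 4 genes per list with the largest log2 ratio in size, and 14 set by name, 1 of which is not reported here. Log2 ratios used FPKM + 1 and a mean of at least 1 FPKM, and the code was tested on simulated data (Python 3.11.15, pandas 2.3.3, SciPy 1.17.1). The alternatives were other pseudocounts, filters, scalings and limits. "Listed at 0" means at most 0.001 FPKM.

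Depth was estimated from the steps of low FPKM values with GENCODE M21 lengths less 210 bases. Between 0.04 and 0.09 FPKM, the best step was 0.0501 in B6J and 0.0630 in humanCD3eTg, or about 20000000 and 15900000 fragments. Whole fragments, to a tolerance of 0.1, were found for 58.4% of 469 low genes and 53.1% of 305, where 20% is the share for an unfitted step, so fragment numbers are approximate. Intervals are exact (Poisson, or Clopper-Pearson for a percentage of the B6J level) and cover counting error only.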

Additional observations from a re-analysis of the deposited data

How the results depend on the processing

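The 6 MHC genes stayed lower in humanCD3eTg with pseudocounts of 0.1 and 5, median centring, quantile normalization and rescaling to the thymic epithelial genes, while Cd1d1, at the median of all genes, followed the scaling and was above 0 under the last 3. Rescaling moved the median of all genes by 0.21, the other settings by less than 0.1. The number of the 8 genes at least 2-fold lower, 3 as reported, was 1 with a pseudocount of 5, 1 of 3 with a mean of at least 5 FPKM, 6 at a limit of 1.5-fold and 1 at a limit of 4-fold, because these settings change the measure or the genes used. It was 2 to 4 under the others. Among all genes used, the share at least 2-fold lower was 1.65% with the pseudocount of 5 and 6.69% with 0.1. The 5 FPKM filter gave 2.92%. Median centring gave 4.14%, quantile normalization 3.82% and rescaling 3.34%. For the limits of 1.5-fold and 4-fold no share of all genes was computed, so the counts of 6 and 1 cannot be set against a background. The number at least 2-fold higher was 0 throughout. The median of the 8 genes was -1.06 with a pseudocount of 0.1 and -0.46 with 5, and between -0.57 and -0.90 otherwise, including -0.90 without H2-T22 and H2-T10, which share sequence, and -0.85 with H2-gs10, a setting added after seeing the data. The median of the CD1d lipid loading list, -0.11 as reported, became 0.10 after rescaling, because this adds 0.21 to every log2 ratio. That of the further class I-like genes, -0.49 over 11 genes as reported, was -0.24 with a pseudocount of 5. It was -1.64 over the 4 genes averaging at least 5 FPKM and 0 over all 31 found. No paired analysis was possible because each group has 1 library. The estimated depth puts about 1 fragment behind H2-M2 and 9 behind H2-M3 in humanCD3eTg, so the size of their differences is known only within wide limits.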
